A study of Mus musculus with 14 samples.

Results

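The genes described here are 10 that encode chaperones of the endoplasmic reticulum (ER) or proteins that work with them: Hspa5, Hsp90b1, Xbp1, Dnajb9, Dnajc3, Herpud1, Sdf2l1, Pdia4, Pdia6 and Calr. They were chosen by name, as probe sets of the array whose annotation gave exactly 1 gene symbol from that list. The list was chosen with earlier results of these data known. All 10 were found, of 18193 genes with such a probe set, and all 10 passed the filter on intensity. They had 25 of the 45100 probe sets in the table. The probe set with the highest mean over the arrays served as the main one for each gene, and the others were kept as a check.

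RNA was measured on Affymetrix mouse arrays in 3T3-L1, mouse fibroblasts that can be made to differentiate into fat cells. The Empty group carried a control retrovirus without insert, and the SETD5 group a retrovirus for V5-tagged SETD5, a SET domain protein, driven by a weak viral promoter. Both groups were grown in serum-containing medium and, after confluence, given insulin, dexamethasone and isobutylmethylxanthine for 48 h, then insulin alone. Each group had 1 array at 0, 12, 24, 36, 48, 96 and 192 h, which makes 14 arrays, so the other virus or the other hours stand in for replicates. Each group is 1 stably transduced culture, so SETD5 and any other difference between the cultures cannot be told apart. In bulk RNA, fewer cells of a type and less RNA per cell cannot be told apart either.

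Proteins that enter the secretory pathway fold in the ER with the help of chaperones and disulfide-forming enzymes. When unfolded proteins accumulate, the sensors IRE1, ATF6 and PERK start the unfolded protein response, in which spliced XBP1 and ATF6 raise the genes of chaperones and of ER-associated degradation. The PERK branch acts through ATF4 and CHOP. Fat cells secrete adipokines and matrix proteins, and XBP1 is known to be needed for fat cell formation in culture. The array does not separate spliced from unspliced Xbp1 RNA.

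Promoter sequences are shown because the ER stress element (ERSE), through which ATF6 and XBP1 act, is what these genes are best known to share. In the RefSeq windows of build GRCm38.p6, from 250 bases before to 50 bases after each gene's start, all 10 genes had 1 entry among 32851. The ERSE was searched as CCAAT and CCACG 9 bases apart, and ERSE-II as ATTGG and CCACG 1 base apart, on both strands. The ERSE was found in 5 of the 10 windows (Hspa5, Hsp90b1, Dnajc3, Pdia6 and Calr) and in 0.119% of all windows. Herpud1 held an ERSE-II, which 0.0365% of all windows held. The whole window of Hspa5 follows, with the letters of the match in capitals, as the example that other genes can be read against.
Hspa5, chr2:34771840-34772139, plus strand: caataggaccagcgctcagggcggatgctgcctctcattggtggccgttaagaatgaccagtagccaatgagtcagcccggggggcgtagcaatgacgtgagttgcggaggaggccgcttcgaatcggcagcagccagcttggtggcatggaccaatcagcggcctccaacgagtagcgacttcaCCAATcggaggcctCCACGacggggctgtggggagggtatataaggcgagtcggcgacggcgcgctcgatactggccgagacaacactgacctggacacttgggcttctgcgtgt

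The stretches around the matches in the other genes are shown so that their spacing and strand can be compared, 5′ to 3′ on the gene's strand. Hsp90b1 held matches on both strands, and the Calr match lay on the opposite strand, where it reads CGTGG and ATTGG.
Hsp90b1, chr10:86705519-86705670, minus strand: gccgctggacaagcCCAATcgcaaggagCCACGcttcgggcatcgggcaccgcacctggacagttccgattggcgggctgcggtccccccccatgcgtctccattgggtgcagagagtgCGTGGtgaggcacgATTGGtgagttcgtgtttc
Dnajc3, chr14:118937813-118937859, plus strand: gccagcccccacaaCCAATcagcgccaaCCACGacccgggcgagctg
Pdia6, chr12:17266477-17266523, plus strand: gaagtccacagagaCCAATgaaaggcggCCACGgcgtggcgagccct
Calr, chr8:84847061-84847107, minus strand: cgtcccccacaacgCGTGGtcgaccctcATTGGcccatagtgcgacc
Herpud1, chr8:94386363-94386401, plus strand: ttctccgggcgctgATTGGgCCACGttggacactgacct

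No window held TGACGTGG, the unfolded protein response element, which 0.676% of all windows held. The shorter ACGTG, which overlaps that element and can overlap the CCACG of the others, stood in 6 of the 10 windows and in 19.6% of all windows. Dnajb9 held it on both strands at 1 place, shown with those letters in capitals because Dnajb9 had no ERSE.
Dnajb9, chr12:44210156-44210189, minus strand: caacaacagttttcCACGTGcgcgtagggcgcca
Xbp1, Sdf2l1 and Pdia4 held no ERSE, ERSE-II, TGACGTGG or ACGTG in this window. A match describes letters and not a site in use. Only exact letters and spacing were searched, so a window without a match can still hold a variant of an element.

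Intensities are linear and scaled by array, and differences are log2 of the intensity plus an offset of 16. Errors are limma's standard errors (SE), and a gene was called at a Benjamini-Hochberg adjusted p under 0.05 over the 8682 genes that reached 50 on 3 arrays or more. On each array 88.4% to 93.8% of these genes reached 50. Intensities of the Setd5 probe set lay between 249 and 378 (empty virus) and between 239 and 350.1 (SETD5 virus) (log2 difference -0.03 ± 0.06, adjusted p = 0.788), so no rise with the SETD5 virus was called on this probe set, and whether it detects the viral RNA was not tested. The SETD5 group is therefore named by its labels. The paper reports higher Setd5 mRNA by qPCR, and V5-tagged protein by immunoblot, in cells with the SETD5 virus. The labels do not say which of its transduced lines was on these arrays. Markers of fibroblasts were tested for 10 of 10 names, and those of fat cells for 8 of 10. No macrophage, endothelial or muscle marker passed the filter, and their highest single intensities were 55.6, 11.3 and 50.6.

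**Figure D1:**
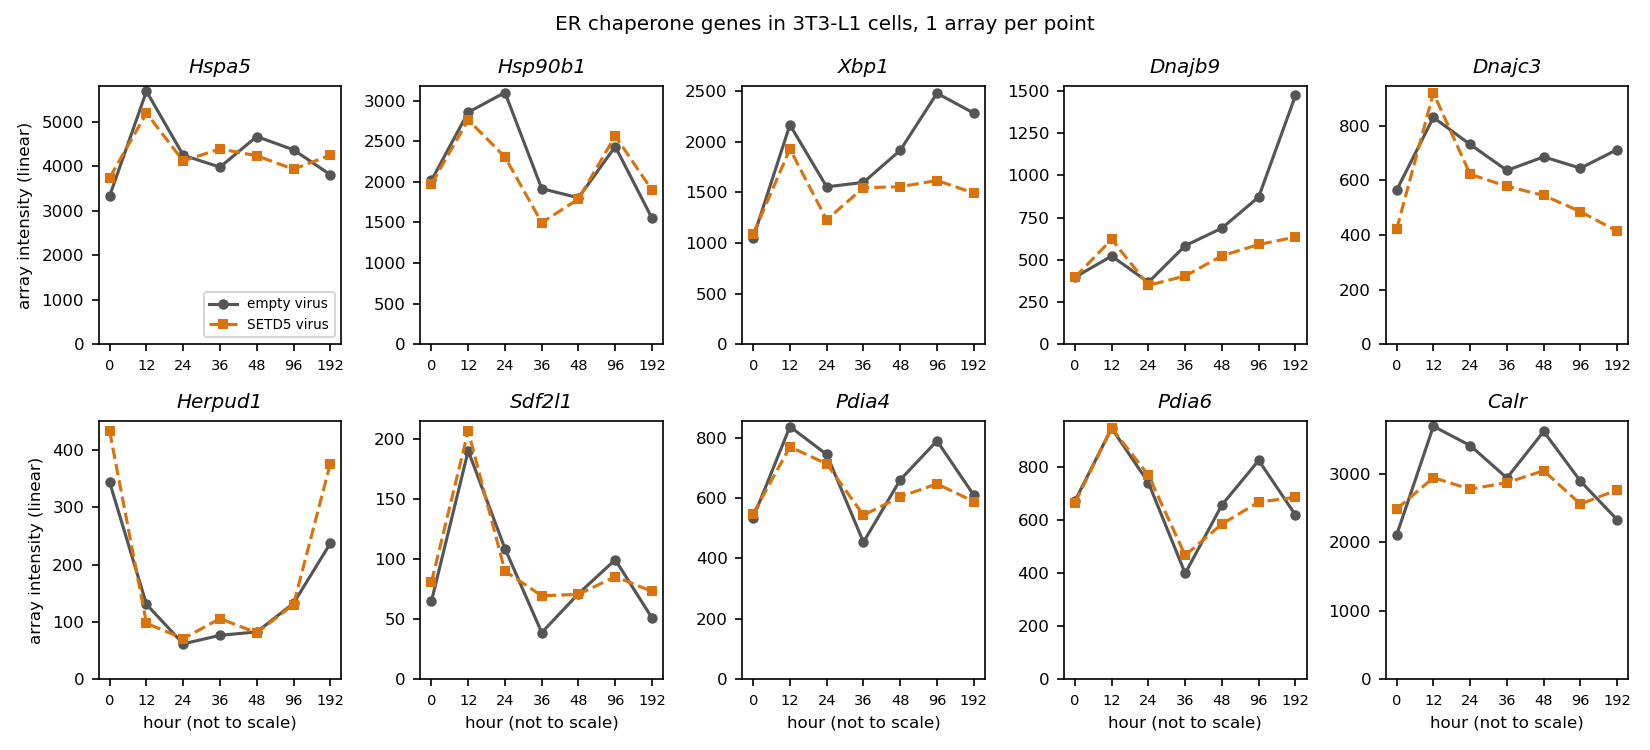
Array intensity (y axis, linear, from 0) of the main probe set of each gene plotted by hour (x axis, not to scale), 1 array per point, grey circles for the empty virus and orange squares for SETD5. All genes but Herpud1, which drops, are higher at 12 h than at 0 h in both cultures. Dnajb9, Xbp1 and Dnajc3 part between the viruses at 96 and 192 h.

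The first question was how the chaperone genes moved when the hormone mixture was added. At 12 h, 8 of the 10 genes rose against 0 h and 1 fell. Over all genes tested, 19.9% rose and 27.9% fell. The median change was 0.54 for the 10 genes and -0.06 for all genes, on the log2 scale. With each array scaled to a common median, the median of all genes at 12 h moved up by 0.105, and the calls became 2254 rises and 1972 falls in place of 1726 and 2422.

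Hspa5 encodes BiP, the Hsp70 of the ER and the sensors' own regulator. Its intensities in the order of the hours were 3335, 5682, 4245, 3977.5, 4665, 4367 and 3808 with the empty virus. They were 3743, 5190.0, 4115, 4388, 4233, 3931 and 4246 with the SETD5 virus. The lowest value of each culture was at 0 h and the highest at 12 h. Hspa5 rose 1.53-fold at 12 h (log2 change 0.62 ± 0.12, adjusted p = 0.00255, n = 2 arrays per hour), and at no later hour was it called, with changes of 0.19 to 0.33. A second Hspa5 probe set rose at 12 h (0.82 ± 0.12, adjusted p = 0.000435) and was also called at 96 h (0.47 ± 0.12, adjusted p = 0.0267). The remaining Hspa5 probe set had intensities of 135 to 270.4 and gave -0.10 ± 0.19, adjusted p = 0.693 at 12 h.

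Hsp90b1 encodes GRP94, the Hsp90 of the ER. Its intensities were 2019, 2858, 3101, 1917, 1804, 2436 and 1552.5 with the empty virus and 1974, 2764, 2307, 1498, 1789.9, 2567 and 1898 with SETD5. The highest value was at 24 h with the empty virus and at 12 h with SETD5. Hsp90b1 rose 1.4-fold at 12 h (log2 change 0.49 ± 0.16, adjusted p = 0.0307), a call that was lost with quantile normalization and without the filter. A second Hsp90b1 probe set was not called at 12 h (0.32 ± 0.18, adjusted p = 0.174). On the main probe set the change was -0.23 at 36 h and -0.22 at 192 h, and neither was called. The second probe set fell at 36 h (-0.67 ± 0.18, adjusted p = 0.0224) and at 48 h (-0.55 ± 0.18, adjusted p = 0.0418).

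Calr encodes calreticulin, a chaperone that binds sugar chains and calcium. Calr read 2103, 3693, 3411, 2938, 3617, 2891 and 2327 with the empty virus. It read 2483, 2942, 2774, 2870.4, 3043, 2557 and 2764 with SETD5. On this probe set the range was 2483 to 3043 with SETD5 and 2103 to 3693 with the empty virus. Calr rose at 12 h (log2 change 0.53 ± 0.16, adjusted p = 0.0226) and at 48 h (log2 change 0.53 ± 0.16, adjusted p = 0.0291), and both calls were lost with quantile normalization, the latter also without the filter. At 12 h the change was 0.81 with the empty virus and 0.24 with SETD5, each from 1 pair of arrays, and the difference between them was not tested. The other Calr probe sets gave larger 12 h changes (0.85 ± 0.13, adjusted p = 0.000511, and 0.84 ± 0.12, adjusted p = 0.000466). In these the cultures lay closer together, at 1.01 and 0.69 in one and 0.94 and 0.74 in the other. Both were also called at 24 h (0.52 ± 0.13, adjusted p = 0.00942, and 0.51 ± 0.12, adjusted p = 0.00907) and at 96 h (0.49 ± 0.13, adjusted p = 0.0296, and 0.55 ± 0.12, adjusted p = 0.0167), where the main one was not, and both fell from 96 to 192 h.

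Sdf2l1, which keeps BiP clients in solution as a partner of ER J-domain proteins, rose most of the 10 genes at 12 h. Its intensities were 64.9, 190.5, 109, 38.8, 71.3, 99.6 and 51.0 with the empty virus and 80.9, 207, 90.1, 69.5, 70.7, 85.5 and 73.2 with SETD5. The 38.8 at 36 h lay under the filter of 50. In both cultures the 12 h array stood above all others of that culture, and Sdf2l1 rose 2.42-fold (log2 change 1.28 ± 0.20, adjusted p = 0.000587). By 24 h the change was 0.38 (adjusted p = 0.156).

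Dnajc3 encodes P58IPK, a J-domain cochaperone of BiP that also inhibits PERK. Dnajc3 had 564, 831, 732, 637, 686.5, 645 and 713 with the empty virus. It had 421, 921, 623, 579, 545, 486 and 414 with SETD5. Both cultures were highest at 12 h, and from then on the SETD5 culture was lower at each following hour. Dnajc3 rose 1.77-fold at 12 h (log2 change 0.82 ± 0.18, adjusted p = 0.00398). The 3 other Dnajc3 probe sets that passed the filter rose by similar amounts, from 0.79 to 0.81. Tested on their own, 2 of these were called against 0 h at 96 h as well (0.62 ± 0.14, adjusted p = 0.0197, and 0.62 ± 0.17, adjusted p = 0.0369) and 1 at 192 h (0.55 ± 0.14, adjusted p = 0.0285), where the main one was not (log2 change 0.19 ± 0.18, adjusted p = 0.503 at 96 h).

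The protein disulfide isomerases Pdia4 (ERp72) and Pdia6 (P5) catalyse disulfide bonds in client proteins. Pdia4 intensities were 535, 837.5, 745, 454, 661, 790.3 and 610.3 with the empty virus and 549, 770.4, 714, 544, 605, 647.5 and 589 with SETD5. Those of Pdia6 were 670.1, 944, 739, 398, 656, 823 and 618 and 663, 945, 767, 466, 584, 666 and 684. Both genes were highest at 12 h and lowest at 36 h in both cultures. Pdia4 rose 1.47-fold at 12 h (log2 change 0.55 ± 0.13, adjusted p = 0.00579) and Pdia6 rose 1.41-fold (log2 change 0.49 ± 0.13, adjusted p = 0.0127). Over the 14 arrays the 2 genes had a Pearson correlation of 0.88, and Sdf2l1 had 0.83 with Pdia4 and 0.86 with Pdia6, as descriptions over arrays that share cultures and scaling. At 36 h Pdia6 fell below its 0 h level (log2 change -0.61 ± 0.13, adjusted p = 0.00771), and Pdia4 did not pass the test (log2 change -0.12 ± 0.13, adjusted p = 0.525).

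Xbp1, the transcription factor of the IRE1 branch, rose at 12 h and was called again from 36 h on. It had intensities of 1049, 2166, 1554, 1598.5, 1914.5, 2478 and 2282 with the empty virus. With SETD5 they were 1087, 1927, 1229, 1546, 1555.5, 1617 and 1493.5. In both cultures 0 h was the lowest array. Xbp1 rose 1.9-fold at 12 h (log2 change 0.93 ± 0.17, adjusted p = 0.00148), was not called at 24 h (log2 change 0.37 ± 0.17, adjusted p = 0.111), and rose against 0 h at 36, 48, 96 and 192 h, by 0.55, 0.68, 0.90 and 0.78. The 2 other Xbp1 probe sets over the filter rose at 12 h too, by 1.03 and 1.13. The calls at 48 and 192 h were lost without the virus as a block (adjusted p = 0.0523 and adjusted p = 0.0526 by limma).

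Dnajb9 encodes ERdj4, a J-domain cochaperone that brings BiP to IRE1 and holds it inactive. Dnajb9 read 397, 522.5, 367, 584, 688, 873 and 1474 with the empty virus and 396, 622, 349, 404.5, 524, 591 and 635 with SETD5. It was the 1 gene of the 10 without a call at 12 h (log2 change 0.51 ± 0.27, adjusted p = 0.153), and it was called there without the 192 h pair. Its highest arrays were those of 192 h, where it rose 2.39-fold (log2 change 1.26 ± 0.27, adjusted p = 0.0123). At 192 h it stood 3.61-fold over its own 0 h array with the empty virus and 1.58-fold with SETD5.

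Herpud1, an ER membrane protein of the degradation machinery that is a strong target of the stress response, went the other way. Its intensities were 343, 130.5, 61.5, 76.4, 82.3, 132 and 237 with the empty virus and 432, 97.4, 70.6, 106, 80.7, 130.2 and 376 with SETD5. Both cultures were highest at 0 h and lowest at 24 h. Herpud1 fell 3.11-fold at 12 h (log2 change -1.64 ± 0.20, adjusted p = 0.000163) and 4.9-fold at 24 h (log2 change -2.29 ± 0.20, adjusted p = 3.05e-05). It remained lower at 36, 48 and 96 h, by -1.92, -2.04 and -1.45. At 192 h the difference from 0 h was not called (log2 change -0.35 ± 0.20, adjusted p = 0.246). A second Herpud1 probe set fell by 2.03 on the log2 scale at 12 h, and was called from 48 to 96 h as a rise (0.94 ± 0.16, adjusted p = 0.0131).

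**Figure D2:**
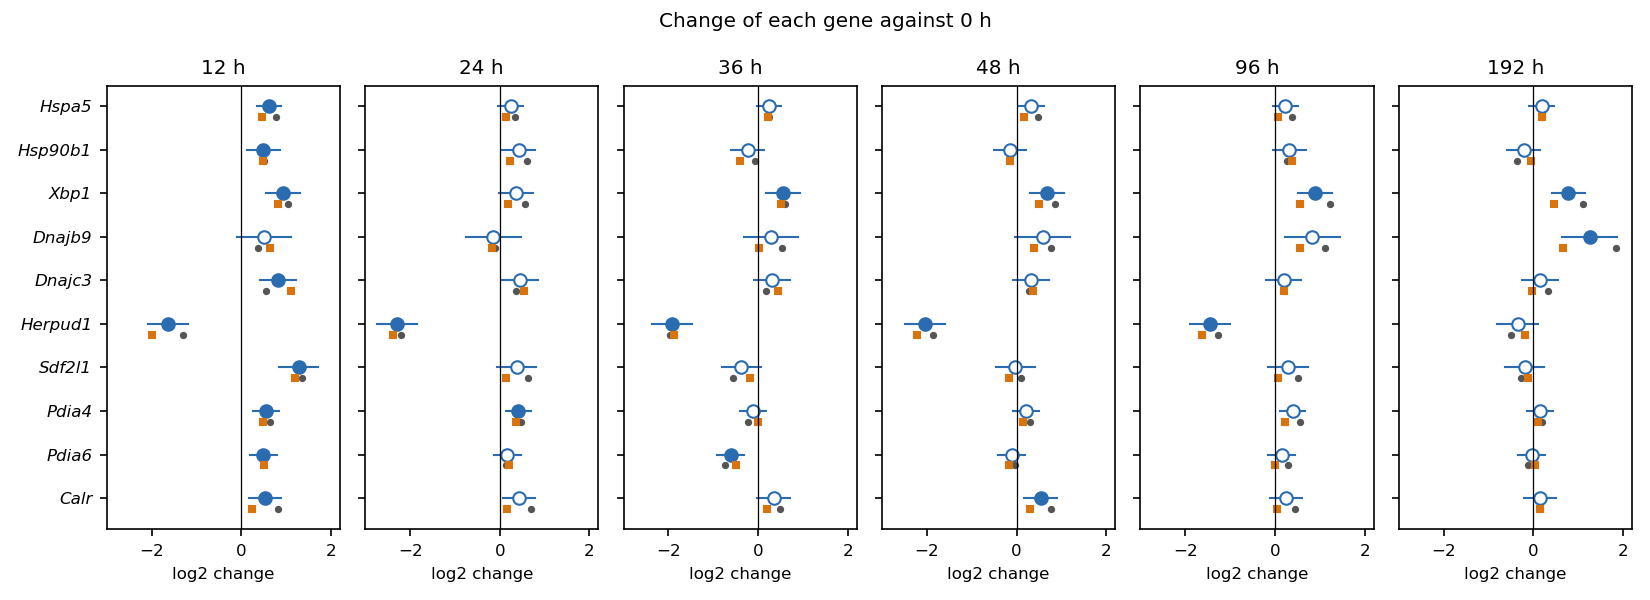
Log2 change against 0 h (x axis) of each gene (y axis) in 6 panels, 1 per later hour: blue circles are the estimates over both viruses with 95% confidence intervals, filled where adjusted p is under 0.05, and the small markers below them are single pairs of arrays, grey circles for the empty virus and orange squares for SETD5. At 12 h 8 genes are filled right of 0 and Herpud1 left of it, and at 192 h the filled genes are Xbp1 and Dnajb9.

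After 12 h fewer of the genes differed from 0 h. At 24 h Pdia4 rose (log2 change 0.42 ± 0.13, adjusted p = 0.0276) and Herpud1 fell, against 16.4% and 21.9% of all genes. Median scaling called 5 of the 10 at 24 h, as did leaving out the 192 h pair. At 36 h Xbp1 rose while Pdia6 and Herpud1 fell, against 12.4% rising and 17% falling over all genes. The Xbp1 call at 36 h was lost with quantile normalization, without the filter, without the virus as a block and without the 24 h pair (range of its adjusted p over 14 alternatives 0.0157 to 0.116). At 48 h Xbp1 and Calr rose and Herpud1 fell, with 14.4% and 19.9% of all genes, and leaving out the 192 h pair gave 5 calls. Median scaling turned the calls over all genes from 1427 rises and 1905 falls to 1822 and 1596 at 24 h, from 1076 and 1478 to 1447 and 1181 at 36 h, and from 1248 and 1724 to 1596 and 1415 at 48 h.

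In the insulin phase, the genes called against 0 h were Xbp1 and Herpud1 at 96 h, and Xbp1 and Dnajb9 at 192 h. At 96 h Xbp1 rose 1.86-fold (log2 change 0.90 ± 0.17, adjusted p = 0.00667) and Herpud1 fell 2.73-fold (log2 change -1.45 ± 0.20, adjusted p = 0.0014), and 6.12% of all genes rose and 9.53% fell. Without the 192 h pair 4 of the 10 were called at 96 h. At 192 h both calls were rises, which 7.3% of all genes showed. These comparisons share the 0 h arrays, so calls at different hours are not independent of each other.

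Each step between the later hours was tested apart. From 48 to 96 h, after the change to insulin alone, limma called 0 of the 10 genes (2 at an unadjusted p under 0.05, Hsp90b1 with 0.47 and Herpud1 with 0.59) and 8.28% of all genes. Without the 192 h pair those 2 genes were called. From 96 to 192 h Herpud1 rose 2.14-fold (log2 change 1.10 ± 0.20, adjusted p = 0.0108), as did 2.59% of all genes. Hsp90b1 went the other way without a call (log2 change -0.54 ± 0.16, adjusted p = 0.0766).

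The second question was whether these genes differed with the SETD5 virus. The paper reports that V5-tagged SETD5 protein rose soon after induction and then declined during early differentiation. Whether the protein was still raised at the later hours of these arrays was not tested. Over all 7 hours, with each SETD5 array set against the empty virus array of its hour, limma called 0 of the 10 (3 at an unadjusted p under 0.05) and 3.62% of all genes. In the early hours, 0 to 24 h, it called 0 of the 10 (0 at an unadjusted p under 0.05) and 0.023% of all genes. In the late hours, 36 to 192 h, 1 of the 10 fell, which was Dnajb9, and 4.56% of all genes fell. The late medians were -0.04 for the 10 genes and 0.04 for all genes. Median scaling moved the split over all genes from 645 rises and 396 falls to 486 and 454 in the late hours, and from 237 and 77 to 155 and 93 over all hours.

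Dnajb9 at the late hours was 584, 688, 873 and 1474 with the empty virus and 404.5, 524, 591 and 635 with SETD5. It was lower with SETD5 at 4 of 4 late hours, while the 2 sets of values overlap across hours. The log2 differences were -0.51, -0.38, -0.55 and -1.20, and the late effect was a 1.58-fold fall (log2 difference -0.66 ± 0.13, adjusted p = 0.015, n = 4 hours, 95% confidence interval -0.95 to -0.37). At 0, 12 and 24 h the differences were -0.00, 0.24 and -0.07. Leaving out the 96 h pair ended the call (-0.70, adjusted p = 0.0525), as did a fit without the hour as a block (adjusted p = 0.575), within a range of 0.00324 to 0.575 over 17 alternatives. Late minus early was -0.72 ± 0.20 with an adjusted p of 0.334, and only with 96 and 192 h as the late window was it called (-0.93, adjusted p = 0.0186).

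Xbp1 came close to the threshold. At 96 and 192 h it read 2478 and 2282 with the empty virus and 1617 and 1494 with SETD5. It was lower with SETD5 at 4 of 4 late hours (log2 difference -0.39 ± 0.11, adjusted p = 0.0507, 95% confidence interval -0.64 to -0.14), by -0.05 at 36 h and by -0.61 at both 96 and 192 h. The late difference was called under 6 of 17 alternatives, among them median scaling (adjusted p = 0.0462) and a late window of 96 and 192 h (-0.61, adjusted p = 0.00633). A second Xbp1 probe set was called on its own, over all hours too (late hours -0.43 ± 0.10, adjusted p = 0.0278), and another gave -0.45 ± 0.13, adjusted p = 0.0555.

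Dnajc3 had a late difference of similar size in its main probe set (log2 difference -0.40 ± 0.12, adjusted p = 0.0552), lower at 4 of 4 late hours, and called under 6 of 17 alternatives. It was already lower at 0 h, with 421 against 564. The other probe sets gave -0.15 ± 0.10, adjusted p = 0.36, 0.10 ± 0.11, adjusted p = 0.554, and 0.05 ± 0.12, adjusted p = 0.792. In the last of these the 192 h arrays read 330.0 with the empty virus and 479 with SETD5, the reverse of the 713 and 414 in the main one. The probe sets of Dnajc3 therefore disagree on SETD5, though not on the rise at 12 h.

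The remaining members had no late call on their main probe sets. Their confidence intervals rest on how much the difference between the viruses varied from hour to hour on that probe set. These intervals leave out the spread between replicate cultures, so they do not bound an effect of SETD5. Hspa5 had a late difference of 0.00 ± 0.09 with an interval of -0.20 to 0.21, and Hsp90b1, Pdia4, Pdia6 and Calr had -0.25 to 0.25, -0.26 to 0.16, -0.24 to 0.20 and -0.32 to 0.21. Herpud1 (log2 difference 0.25 ± 0.14, adjusted p = 0.263) and Sdf2l1 (log2 difference 0.21 ± 0.14, adjusted p = 0.325) leaned upward, with 0.63 for Herpud1 at 192 h and 0.64 for Sdf2l1 at 36 h, the hour under the filter. The second Hsp90b1 probe set departed from the main one. It had 2231.5, 2987, 2334, 1615, 1678, 2319 and 1621 with the empty virus and 1820.3, 2136, 1355, 982, 1115, 1504.5 and 1661.5 with SETD5, lower at 6 of 7 hours, and tested on its own it fell over all hours (-0.49 ± 0.10, adjusted p = 0.0205) and in the late hours (-0.47 ± 0.13, adjusted p = 0.048).

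**Figure D3:**
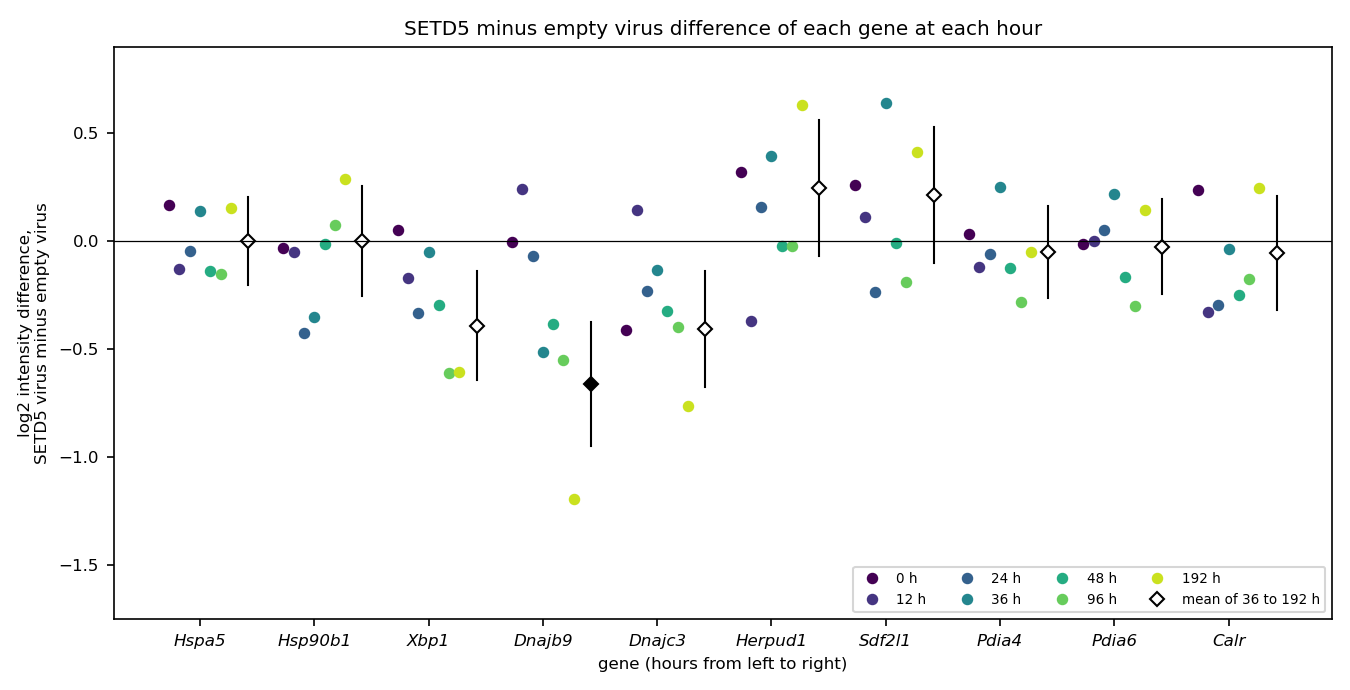
Log2 intensity of the SETD5 virus array minus that of the empty virus array (y axis) for each gene (x axis), with 1 circle per hour from 0 h (left, dark) to 192 h (right, light), and a diamond for the mean of 36 to 192 h with its 95% confidence interval, filled where adjusted p is under 0.05. Only the Dnajb9 diamond is filled, at -0.66, and the Xbp1 and Dnajc3 diamonds lie at -0.39 and -0.40.

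Late minus early, limma called 0 of the 10 genes (1 at an unadjusted p under 0.05, Dnajb9) and 0.023% of all genes. Fat cell markers were lower with SETD5 in the late hours, as were Dnajb9 and Xbp1. The summed intensity of the 8 markers with a probe set spanned 1489 to 38221 with the empty virus and 1519 to 20508 with SETD5. At 96 h it was 24491 and 10142. From 96 to 192 h the sum rose in both cultures. In the same step Dnajb9 went from 873 to 1474 (empty virus) and from 591 to 635 (SETD5). Xbp1 went from 2478 to 2282 (empty virus) and from 1617 to 1493.5 (SETD5). All 8 markers rose at 192 h against 0 h, and 7 of 8 fell in the late hours with SETD5. Adiponectin (Adipoq), for one, fell by 1.45 ± 0.24 (adjusted p = 0.00882), and Fabp4, a fatty acid carrier, fell by 1.30 ± 0.21 (adjusted p = 0.00845). The regulators Pparg and Cebpa fell by 1.51 ± 0.25 (adjusted p = 0.00893) and 1.05 ± 0.25 (adjusted p = 0.0301). Their part in the differences of Dnajb9 and Xbp1 was not tested. Fibroblast markers summed to between 30201 and 34525 with the empty virus and between 28093 and 38031 with SETD5. All 10 were higher with SETD5 in the late hours, with a median of 0.26, and 2 of them rose, Dlk1, a preadipocyte surface protein (0.41 ± 0.10, adjusted p = 0.0337), and Pdgfra, a growth factor receptor (0.28 ± 0.08, adjusted p = 0.0472). The part of these markers was not tested either.

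**Figure D4:**
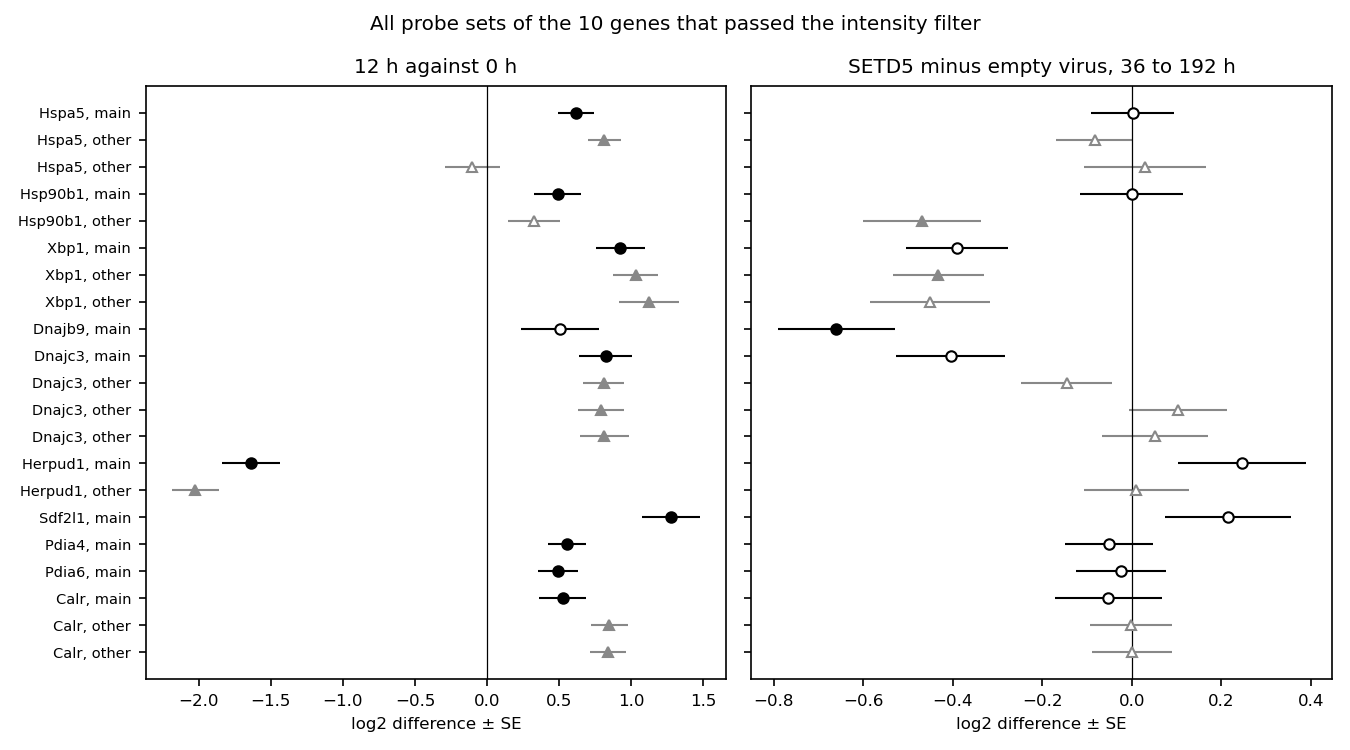
Log2 difference ± SE (x axis) of the 21 probe sets of the 10 genes that passed the filter (y axis), at 12 h against 0 h (left) and for SETD5 minus empty virus at 36 to 192 h (right), each tested on its own, with black circles for main and grey triangles for other probe sets and filled markers for adjusted p under 0.05. At 12 h the Herpud1 probe sets lie left of 0, and 1 Hspa5 probe set, at -0.10, stands apart from the others of its gene. On the right the probe sets of Dnajc3 and of Hsp90b1 differ from each other.

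The other genes of the pathway come from lists by function, and beside each list's counts the genes with the largest differences are named. At 12 h, 19.9% of all genes rose and 27.9% fell, which the 12 h counts of each list can be read against. With SETD5 in the late hours, 7.43% of all genes rose and 4.56% fell, which the late counts of each list can be read against. Of 35 tested other ER chaperones and folding enzymes, 11 rose and 2 fell at 12 h, with a median of 0.07. Among the risers, chosen after their values were seen, were Manf, a secreted ER factor (1.33 ± 0.16, adjusted p = 0.000124), Creld2 (0.99 ± 0.17, adjusted p = 0.000936) and Hyou1, the exchange factor of BiP (0.78 ± 0.14, adjusted p = 0.00158). Fkbp11, a prolyl isomerase, and Pdia5 fell at 36 h (-1.56 ± 0.29, adjusted p = 0.00299, and -1.40 ± 0.22, adjusted p = 0.00123). In the late hours 4 of the 35 rose with SETD5 and 1 fell. Pdia5 rose (0.60 ± 0.12, adjusted p = 0.0175) as did the collagen chaperone Fkbp14 (0.47 ± 0.08, adjusted p = 0.00901), and Ero1a, the oxidase that reoxidises disulfide isomerases, fell (-0.85 ± 0.18, adjusted p = 0.0195). Fkbp11 did not pass the test (0.40 ± 0.19, adjusted p = 0.186).

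Genes of the stress sensors and the PERK-ATF4 branch went opposite to the chaperones at 12 h. Of 20 tested, 0 rose and 12 fell, with a median of -0.47. Chac1, a glutathione-degrading target of ATF4, fell 10.1-fold at 36 h (-3.34 ± 0.15, adjusted p = 1.69e-06), and Trib3, a pseudokinase target of CHOP, 8.99-fold at 48 h (-3.17 ± 0.24, adjusted p = 1.69e-05). At those hours Chac1 read 17.7 and 19.6 and Trib3 41.7 and 24.0, under the filter, so these folds depend in part on the offset. Ddit3, which encodes CHOP, fell 7.72-fold at 12 h (-2.95 ± 0.15, adjusted p = 2.18e-06), and Atf4 itself 1.47-fold (-0.56 ± 0.15, adjusted p = 0.0119), both named after their values were seen. From 96 to 192 h 5 of the 20 rose and 0 fell, while 2.59% of all genes rose, and Herpud1 rose too. From 48 to 96 h 4 of the 20 rose and 0 fell, while 376 of all 8682 genes rose and 343 fell. In that step the main Herpud1 probe set was not called. In the late hours Creb3l2, an ER-bound factor of secretory genes, rose with SETD5 (0.38 ± 0.10, adjusted p = 0.0336), while Sesn2 (-0.57 ± 0.14, adjusted p = 0.0316) and Asns, asparagine synthetase (-0.36 ± 0.08, adjusted p = 0.0228), fell. Creb3l1 gave 0.39 ± 0.12, adjusted p = 0.064.

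Of 26 genes of ER-associated degradation, 4 rose and 7 fell at 12 h, with a median of 0.01, beside 19.9% and 27.9% of all genes. Ube2g2, a ubiquitin-conjugating enzyme, rose 2.51-fold at 48 h (1.33 ± 0.14, adjusted p = 0.00011), and Erlin1, a membrane adaptor of degradation, 2.15-fold at 12 h (1.10 ± 0.11, adjusted p = 4.22e-05). In the late hours limma called 0 of the 26 for SETD5, and the largest differences were those of Ubxn4 (-0.35 ± 0.13, adjusted p = 0.105), Ufd1 (-0.29 ± 0.15, adjusted p = 0.201), Derl2 (-0.29 ± 0.10, adjusted p = 0.0824) and Erlec1 (0.22 ± 0.10, adjusted p = 0.181).

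Genes that bring proteins into the ER and add N-linked sugars rose at 12 h in 15 of 41 cases and fell in 0, with a median of 0.25. Srprb, of the signal recognition particle receptor, rose 2.17-fold (1.12 ± 0.14, adjusted p = 0.000151), and Dad1, of the oligosaccharyltransferase, 1.99-fold (1.00 ± 0.11, adjusted p = 7.91e-05). With SETD5 1 rose in the late hours, the mannosyltransferase Alg12 (0.35 ± 0.09, adjusted p = 0.0336), which lay between 37.9 and 74.4. Alg9 (-0.35 ± 0.13, adjusted p = 0.102), Ddost (0.29 ± 0.10, adjusted p = 0.0951) and Tram1 (0.28 ± 0.11, adjusted p = 0.107) were not called.

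Transport out of the ER had 27 tested genes, of which 7 rose and 3 fell at 12 h, beside 19.9% and 27.9% of all genes. Kdelr3, a receptor that returns ER chaperones, fell 2.47-fold at 48 h (-1.30 ± 0.23, adjusted p = 0.0022), and Sec24d, a cargo adaptor of COPII vesicles, 2.21-fold at 24 h (-1.14 ± 0.18, adjusted p = 0.000771). In the late hours 3 rose with SETD5 and 0 fell. Preb, the exchange factor of COPII assembly, rose 1.70-fold (0.77 ± 0.11, adjusted p = 0.00713), with 489, 523, 521 and 439 at the late hours against 270.0, 349, 286 and 235, and its 0 h arrays already stood at 405 and 201. Sec24d rose too (0.54 ± 0.10, adjusted p = 0.0115). Kdelr3 (0.43 ± 0.13, adjusted p = 0.0599) and Tmed3 (0.36 ± 0.12, adjusted p = 0.075) were not called.

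Chaperones outside the ER rose together with those inside it at 12 h. Of 31 tested, 20 rose and 1 fell, with a median of 0.55 beside 0.54 for the ER chaperones. Hsph1, an exchange factor of cytosolic Hsp70, rose 4.34-fold (2.12 ± 0.16, adjusted p = 1.2e-05), and Dnajb4 3.06-fold at 36 h (1.61 ± 0.16, adjusted p = 8.96e-05). In the late hours 4 of these fell with SETD5 and 0 rose. They included the mitochondrial chaperones Hspd1 (-0.52 ± 0.11, adjusted p = 0.0205), Hspa9 (-0.48 ± 0.10, adjusted p = 0.0179) and Trap1 (-0.52 ± 0.15, adjusted p = 0.0469), and Hspb8 was not called (-0.47 ± 0.18, adjusted p = 0.108).

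**Figure D5:**
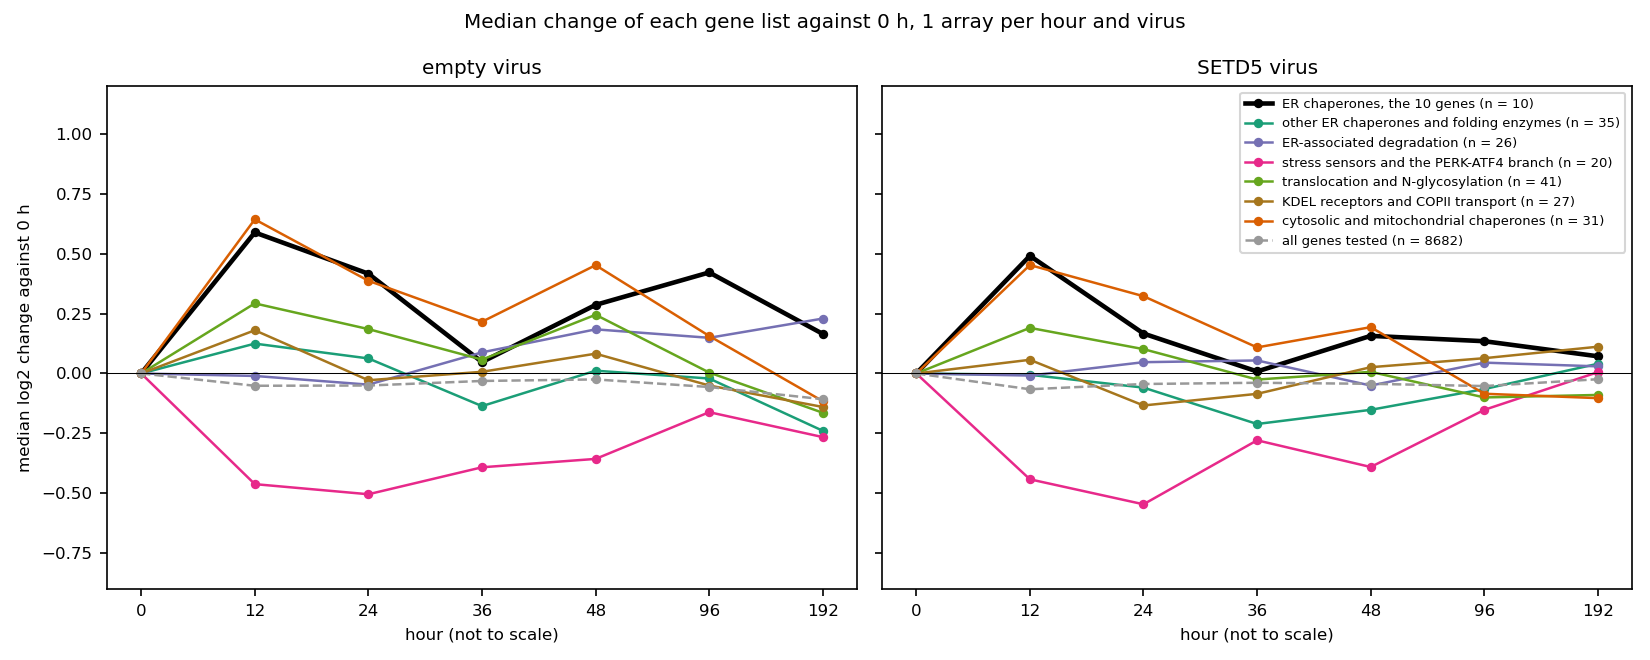
Median log2 change against 0 h (y axis) of the 10 ER chaperones and 6 other gene lists at each hour (x axis, not to scale), with the empty virus on the left and SETD5 on the right, 1 array per point, and all 8682 genes as a dashed grey line. At 12 h the ER chaperones stand at 0.59 and 0.49, near the cytosolic and mitochondrial chaperones, and the stress sensor list at -0.46 and -0.44.

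Likeness to Hspa5 was described by the Pearson correlation of log2 values over the 14 arrays, which share 2 cultures and a common scaling. Among the members Calr was most like it (0.81), followed by Sdf2l1 (0.74), Pdia4 (0.67), Dnajc3 (0.61), Xbp1 (0.60), Pdia6 (0.49) and Hsp90b1 (0.41). Dnajb9 had 0.07 and Herpud1 -0.45. Within the empty virus arrays Dnajb9 had -0.03 and within the SETD5 arrays 0.42. Dnajb9 was closer to Xbp1, at 0.76. Over all other genes tested the 8 most like Hspa5 were Clptm1l (0.95), Erlin1 (0.94), Mapk9 (0.93), the ER calcium pump Atp2a2 (0.92), Tsr1 (0.92), the disulfide isomerase P4hb (0.90), Cad (0.89) and Ece1 (0.89). With quantile normalization 1 of these 8, Clptm1l, was again among the 8 highest.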

How the data were processed

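RNA of 3T3-L1 cells with an empty or a SETD5 retrovirus was measured on 14 arrays, 1 per virus and hour. The deposited values are linear intensities, which the authors computed per probe set as average differences in the GeneChip Analysis Suite and scaled so that each array had the same mean after trimming 2% at each end. Groups and hours were taken from the labels. Of 45100 probe sets, 64 were controls, 34944 had 1 gene symbol, 932 several and 9160 none, by the platform annotation with symbols updated through the Entrez number. The main probe set of a gene had the highest mean. Genes with 50 or more on at least 3 arrays were tested on log2(intensity + 16) by two-sided limma fits (lmFit, eBayes, limma 3.58.1, R 4.3.3). The fit was also run on simulated data with independent errors on each array. Such data lack any dependence between hours of 1 culture, so the run does not show that the p-values hold under it. The SETD5 effect had the hour as a block (6 residual degrees of freedom, or 5 for the early and late windows), and each hour against 0 h had the virus as a block (6). The p-values therefore rest on how much the difference between the viruses varied from hour to hour. They do not measure the spread between replicate cultures, since each virus had 1 culture. The number of arrays limits the precision. Detection calls were not used here.

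All 10 members were named. From each list up to 4 tested genes were named by the size of the late SETD5 effect and 2 by the largest called hour change, besides Pparg, Cebpa, Fabp4, Adipoq and the 8 genes most like Hspa5, and exceptions are marked. The members and lists were chosen with earlier results of these data known. Alternatives were quantile and median scaling, offsets of 4 and 64, no filter, a filter at 100, every probe set on its own (14412 tested), a prior with trend and robust variances, no block, another late window and leaving out each hour. Promoters were read from RefSeq windows. Protein features were not analysed here, since no protein table was used.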

Additional observations from a re-analysis of the deposited data

How the results depend on the processing

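Of 1780 values of single members under the alternatives, 1734 kept the direction of the reported value, 13 lost a call, 33 gained one, and the 46 that changed sign were called under neither setting. The late SETD5 effect was the least stable count. From 1 of 10 genes it became 3 with median scaling, an offset of 64, a filter at 100, a prior with trend and robust variances, or 96 and 192 h as the late window, and 0 without the replicate block, where the hours are not paired. Leaving out 1 hour gave 0 to 3: 0 without the 96 h pair and 3 without the 36 h pair. Late minus early went from 0 to 1 with the other late window. At 24 h the count went from 2 to 5 with median scaling, and leaving out 1 hour gave 2 to 5. At 192 h it went from 2 to 1 without the virus block. Leaving out 1 hour gave 3 to 5 at 48 h (3 as reported), 2 to 4 at 96 h (2 as reported) and 0 to 2 from 48 to 96 h (0 as reported), with the high value in each case without the 192 h pair. Of the 8 genes most like Hspa5, 1 remained with quantile normalization. The cause of these changes was not tested. With 1 array per virus and hour, a difference at a single hour has no test, and intensities under 50 carry folds that depend on the offset.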
